A study of Homo sapiens with 24 samples.

Results

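The levels of 10 genes of fatty acid activation and phospholipid reacylation were followed in 4 human breast cancer lines that carried a short hairpin RNA against ADAR1. The genes are the acyl-CoA synthetases ACSL1, ACSL3, ACSL4 and ACSL5 and the lysophospholipid acyltransferases LPCAT1, LPCAT2, LPCAT3, LPCAT4, MBOAT1 and MBOAT2. They were chosen by name, with earlier results of these data known, as the rows of the count tables whose Ensembl identifier carries one of these symbols. They are 10 of 37416 genes in the tables. All 10 had enough reads over the 24 libraries to be tested, but LPCAT2 had no read in BT549. Its test there could not pass, and no fold change of LPCAT2 is given in BT549 or in the mean. ACSL4 was lower and MBOAT1 was higher in shADAR1 libraries when the 4 lines were averaged, and no other member passed that test. When libraries of the same replicate number were treated as pairs, LPCAT1, which was lower, and MBOAT2, which was higher, passed as well.

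Long-chain fatty acids enter lipid metabolism only after an acyl-CoA synthetase has joined them to coenzyme A. Lysophospholipid acyltransferases then place the activated chain on a phospholipid that has lost one, a cycle of removal and replacement known as the Lands cycle, and so set how many polyunsaturated chains the membranes hold. ACSL4 prefers arachidonic and adrenic acid, LPCAT3 places polyunsaturated chains on phosphatidylcholine and phosphatidylethanolamine, and both are known as promoters of ferroptosis, an iron-dependent cell death driven by the peroxidation of such chains. ACSL3 activates monounsaturated fatty acids and takes part in lipid droplet formation, and MBOAT1 and MBOAT2, which place monounsaturated chains on phosphatidylethanolamine, are known as ferroptosis suppressors.

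BT549, HCC1806, MDAMB231 and MDAMB468 are established lines that the series calls triple-negative, the class of breast cancer without oestrogen receptor, progesterone receptor or HER2 amplification. Each line carried either shADAR1 or shNT, a non-targeting hairpin that serves as the control, and there were 3 replicates, labelled biological, in each of the 8 groups (24 libraries). All groups, controls included, had been infected for 24 h and kept in puromycin at 2 µg/ml for 72 h, so every library comes from selected, hairpin-carrying cells. The hairpin's sequence and the number of hairpins used are not given in the sources used here. The labels do not say whether replicates were separate infections, so p-values measure the spread between these libraries. Total counts ran from 10370645, in MDAMB231 shNT replicate 1, to 97218217, in BT549 shADAR1 replicate 2.

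ADAR, the gene of the targeted RNA-editing enzyme ADAR1, was at 26.1%, 33.1%, 21.9% and 37.1% of control in BT549, HCC1806, MDAMB231 and MDAMB468, with every shADAR1 library below every shNT library of its line. The epithelial markers EPCAM, CDH1, KRT8, KRT18 and KRT19 summed to between 0.724 and 1.24 CPM (the count per 1000000 reads) in the 6 BT549 libraries, against at least 935 CPM in every library of the other 3 lines. CDH1 and KRT5 were also near 0 in MDAMB231, with medians of 0.111 and 0 CPM. VIM and ZEB1, mesenchymal markers, had medians of 2496 and 123.7 CPM in BT549 and 4519 and 118 CPM in MDAMB231, and of at most 10.3 and 1.88 CPM in HCC1806 and MDAMB468. FN1, also a mesenchymal marker, had medians of 2621, 610, 162 and 65.6 CPM in BT549, MDAMB231, HCC1806 and MDAMB468. CDH2, a further mesenchymal marker, did not follow this split. Its medians were 256 CPM in BT549, 30.6 CPM in HCC1806, 1.38 CPM in MDAMB468 and 0.466 CPM in MDAMB231. Of the receptor genes, PGR was under 1 CPM in every library, ERBB2 had medians between 83.9 and 98.4 CPM, and ESR1 had medians of 20.3 CPM in HCC1806 and 7.79 CPM in MDAMB468 and was under 1 CPM in the other two. Of the markers of other cell types given here, PTPRC, CD3E and ALB were under 1 CPM in every library and CDH5 at most 2.16 CPM, while the macrophage marker CD68 had medians of 87.0 CPM in MDAMB231, 46.5 CPM in HCC1806, 21.6 CPM in BT549 and 2.16 CPM in MDAMB468. PECAM1, an endothelial marker, had a median of 4.31 CPM in MDAMB231 and was under 1 CPM in every other library. In bulk RNA of this kind, fewer cells of one state and less RNA per cell cannot be told apart.

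The members differ in the DNA around their start sites. RefSeq promoter windows on GRCh38.p14, from 250 bases before to 50 bases after a start, were found for 8 members (13 windows) and not for LPCAT2 and MBOAT1. Windows of ACSL4, ACSL3 and ACSL5 are shown because these 3 synthetases had the 3 kinds of pattern described here, a fall with shADAR1, a level close to control, and a level that was high in a single line. Capitals mark the CG dinucleotide, which reads the same on both strands and does not overlap itself.
ACSL4: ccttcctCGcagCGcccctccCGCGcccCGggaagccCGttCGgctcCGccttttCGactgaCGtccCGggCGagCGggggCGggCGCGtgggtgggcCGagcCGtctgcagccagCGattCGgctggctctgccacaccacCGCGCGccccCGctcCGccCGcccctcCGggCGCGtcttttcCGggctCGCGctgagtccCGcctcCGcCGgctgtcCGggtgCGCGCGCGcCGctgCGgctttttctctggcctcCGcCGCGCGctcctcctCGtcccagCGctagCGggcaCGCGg
ACSL3: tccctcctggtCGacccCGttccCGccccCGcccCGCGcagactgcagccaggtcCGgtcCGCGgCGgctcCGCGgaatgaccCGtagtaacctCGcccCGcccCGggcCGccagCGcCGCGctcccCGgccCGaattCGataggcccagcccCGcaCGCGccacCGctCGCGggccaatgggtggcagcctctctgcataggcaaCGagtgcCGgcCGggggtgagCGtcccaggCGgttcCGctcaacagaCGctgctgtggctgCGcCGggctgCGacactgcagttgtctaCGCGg
ACSL5, upstream start: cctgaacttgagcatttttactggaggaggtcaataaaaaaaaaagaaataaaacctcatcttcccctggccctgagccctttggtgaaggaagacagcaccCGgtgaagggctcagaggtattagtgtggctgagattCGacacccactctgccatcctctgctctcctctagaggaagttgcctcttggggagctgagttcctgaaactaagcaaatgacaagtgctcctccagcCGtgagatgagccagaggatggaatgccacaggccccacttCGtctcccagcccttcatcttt
ACSL5, downstream start: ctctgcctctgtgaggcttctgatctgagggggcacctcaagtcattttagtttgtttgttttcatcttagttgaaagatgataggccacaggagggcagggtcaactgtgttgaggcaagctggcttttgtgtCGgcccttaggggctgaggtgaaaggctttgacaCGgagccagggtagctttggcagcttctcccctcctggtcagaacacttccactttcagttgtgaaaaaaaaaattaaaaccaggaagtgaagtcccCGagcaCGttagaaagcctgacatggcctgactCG
The ACSL4 window lies at chrX:109733208-109733507 on the minus strand and the ACSL3 window at chr2:222860786-222861085 on the plus strand. Both ACSL5 windows are on the plus strand, at chr10:112375018-112375317 and chr10:112375955-112376254. They hold 51, 41, 4 and 5 CG dinucleotides respectively, against a median of 14 over 35116 promoter windows, of which 96.0% hold at least 1. MBOAT2, with 49, and the most upstream of 5 ACSL1 windows, with 47, were near ACSL4, whereas the other ACSL1 windows hold 4 to 7, about as few as those of ACSL5, and LPCAT4, LPCAT1 and LPCAT3 had 39, 38 and 30. These are counts of letters, and methylation of these sites was not measured.

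Levels below are CPM scaled by TMM, a factor that makes libraries comparable, and folds are log2 ratios of shADAR1 to shNT from edgeR's quasi-likelihood model of all 24 libraries. A gene is called changed where its Benjamini-Hochberg adjusted p over 21352 genes is under 0.05. By this rule 1 of 10 members was called in BT549, where 0.473% of all genes were, and 1 of 10 in MDAMB231, where 2.01% were, and in both lines the gene was ACSL4. No member was called in HCC1806 or MDAMB468, where 0.0468% and 0.0375% of genes were called by edgeR and where 929 and 803 genes had an unadjusted p under 0.05. In the mean of the 4 line effects 2 of 10 members were called, ACSL4 and MBOAT1, against 2.96% of all genes. No member was called in the joint test of whether the effect differs between lines, which called 0.0234% of genes and gave 947 genes an unadjusted p under 0.05. The counts at an unadjusted p in HCC1806, MDAMB468 and the joint test are each lower than 0.05 of the 21352 genes. That share would pass on average without any effect, so these counts are not read as changed genes. The median log2 fold change of the members in the mean was 0.00, against 0.02 over all genes tested. The members as a group thus did not lie to one side. That median includes a fitted value of LPCAT2, which cannot be read as a fold change because BT549 had no read of it.

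ACSL4 (ENSG00000068366) lies on chromosome X, 109624244 to 109733403, minus strand. In BT549 its level was 108, 116 and 109 CPM in shADAR1 replicates 1, 2 and 3 and 151, 167 and 149.9 CPM in shNT replicates 1, 2 and 3. In MDAMB231 it was 101, 107 and 107 CPM against 172, 141 and 139 CPM. The 2 arms were well apart in both lines, and the highest control value was that of the smallest library, MDAMB231 shNT replicate 1. MDAMB468, where the gene was far lower, had 17.9, 18.3 and 18.3 CPM against 24.3, 23.2 and 24.3 CPM, again without overlap. In HCC1806 the values were 37.6, 50.1 and 35.2 CPM against 45.3, 52.9 and 42.4 CPM, and here the arms overlapped because replicate 2 was high in both. Within each of the 12 same-numbered pairs of libraries the shADAR1 value was the lower one.

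**Figure D1:**
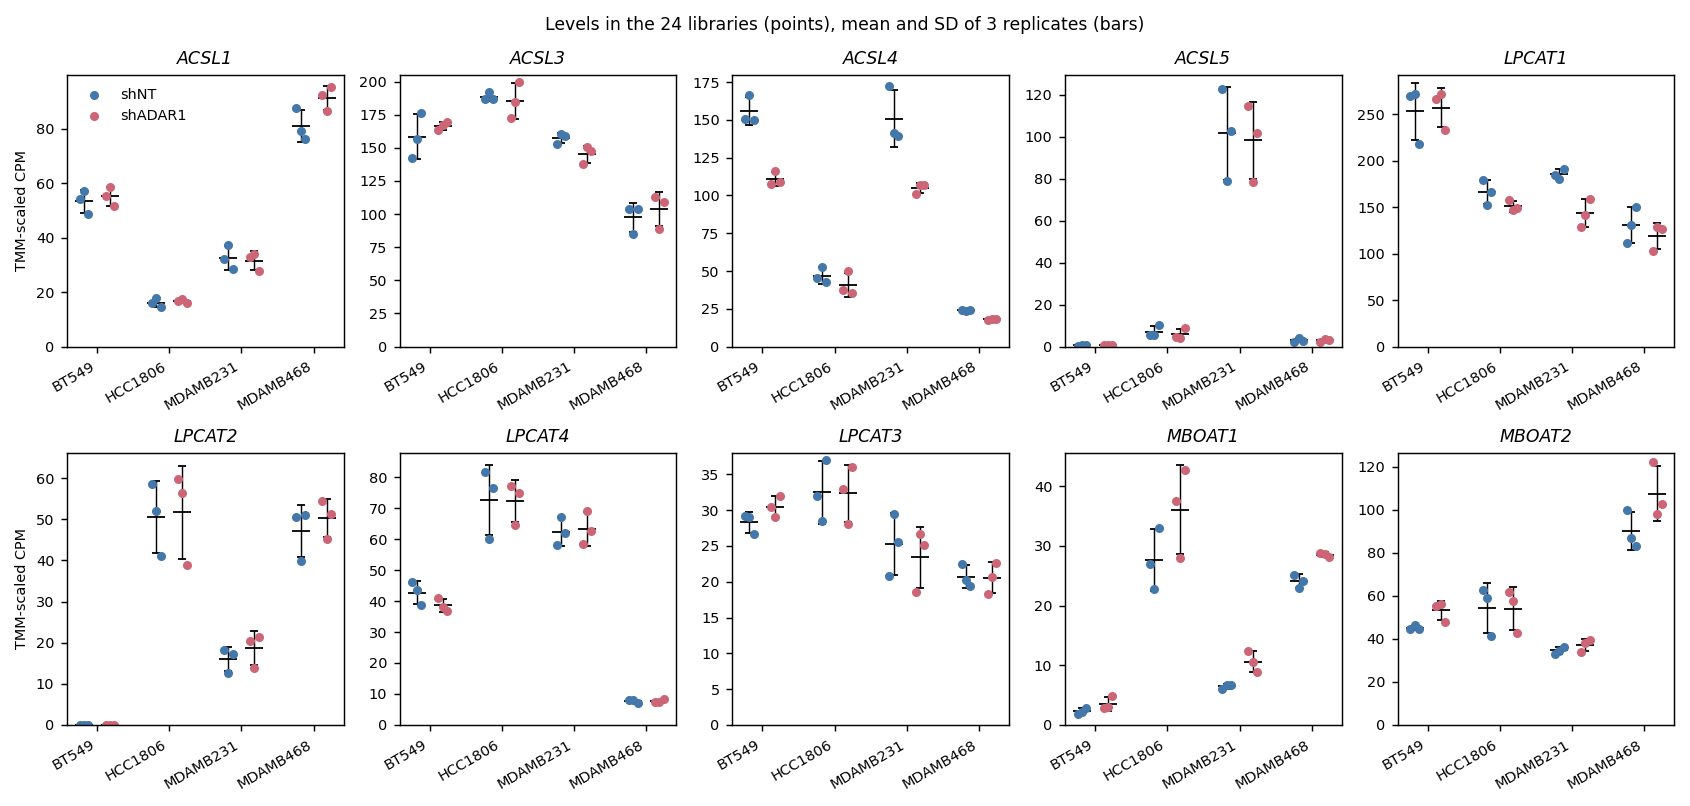
Level of each member in TMM-scaled CPM (vertical axis, linear, starting at 0) in the 24 libraries by line (horizontal axis), with shNT in blue and shADAR1 in red; points are libraries and bars are the mean and SD of 3 replicates. ACSL4 lies lower in shADAR1 in BT549, MDAMB231 and MDAMB468 without overlap, MBOAT1 lies higher in MDAMB231 and MDAMB468 without overlap, and LPCAT2 is at 0 in all 6 BT549 libraries.

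ACSL4 fell to 71.1% of control in BT549 (log2 fold change -0.49, SE 0.109, edgeR adjusted p 0.0395) and to 69.6% in MDAMB231 (log2 fold change -0.52, SE 0.11, edgeR adjusted p 0.00911). In MDAMB468 it was at 75.9% of control (log2 fold change -0.40, SE 0.113, edgeR adjusted p 0.710) and in HCC1806 at 87.2% (log2 fold change -0.20, SE 0.1105, edgeR adjusted p 1), neither of which passed. With the replicate number within a line as a block the MDAMB468 value passed (edgeR adjusted p 0.00550). It passed too where the block was limited to the 3 lines whose numbers pair, which leaves MDAMB468 unpaired (edgeR adjusted p 0.0126). That fit shares its spread over all lines (SE 0.0731 in MDAMB468), so its p does not measure the spread of MDAMB468 alone. The same holds for the p of each line in the main fit of all 24 libraries. The MDAMB468 value did not pass in the edgeR fit to that line's 6 libraries alone (adjusted p 0.141) or with DESeq2 (adjusted p 0.270). Over the 4 lines the mean effect was -0.40 (SE 0.0553, 95% interval -0.52 to -0.29, edgeR adjusted p 6.07e-05), or 75.6% of control. The joint test of the line effects did not pass (F 1.77, edgeR p 0.182, adjusted p 1). With the replicate block it was nearer the threshold but did not pass either (F 4.40, edgeR p 0.0151, adjusted p 0.149). The smaller value in HCC1806 is thus not shown to differ from the rest. The call of the mean was kept in all 24 fits that left out 1 library (log2 fold change -0.44 to -0.38), whereas the BT549 call was lost in each of the 6 fits that left out 1 of its own libraries (adjusted p 0.0603 to 0.275), and without MDAMB231 shADAR1 replicate 3. The MDAMB231 call was lost without shADAR1 replicate 1 or shNT replicate 1 of that line (highest adjusted p 0.0785) and in the edgeR fit to that line's 6 libraries alone (adjusted p 0.0844). The BT549 call was also lost with no filter on low counts (edgeR adjusted p 0.0546). The listed exons of ACSL4 share 78 bases, 1.22% of its length, with those of KCNE5 on the same strand.

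ACSL3 (ENSG00000123983, chromosome 2, 222860934 to 222944639, plus strand) stayed near control in every line. Its values in BT549 were 163, 167 and 169 CPM in shADAR1 against 142, 157 and 176 CPM in shNT, and in HCC1806 172, 185 and 199.6 CPM against 187, 192 and 187 CPM. MDAMB231 had 138, 150.4 and 147 CPM against 153, 160.2 and 159 CPM, with all shADAR1 values below all shNT values, and MDAMB468 had 113, 88.8 and 109 CPM against 104, 85.2 and 104 CPM. The separation in MDAMB231 was small next to the model's error, with a log2 fold change of -0.12 (95% interval -0.32 to 0.08, edgeR adjusted p 0.739). The mean effect over the lines was 0.01 with a 95% interval of -0.09 to 0.10, the narrowest of the members.

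ACSL1 (ENSG00000151726, chromosome 4, 184755595 to 184826818, minus strand), an isoform abundant in fat, heart and liver, likewise had a mean effect near 0, at 0.06 (95% interval -0.05 to 0.17, edgeR adjusted p 0.757). Its group means were 55.2 ± 3.53 CPM in shADAR1 and 53.3 ± 4.23 CPM in shNT in BT549 (SD, n = 3 per arm), 16.7 ± 0.766 and 16.1 ± 1.51 CPM in HCC1806, 31.6 ± 3.41 and 32.5 ± 4.46 CPM in MDAMB231, and 91.5 ± 4.405 and 80.9 ± 5.84 CPM in MDAMB468. In MDAMB468 all 3 same-numbered pairs were higher in shADAR1, yet the arms overlapped and the log2 fold change of 0.18 (95% interval -0.04 to 0.40, edgeR adjusted p 1) did not pass.

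ACSL5 (ENSG00000197142, chromosome 10, 112374018 to 112428380, plus strand), a synthetase of mitochondria and endoplasmic reticulum, was abundant in a single line. MDAMB231 had 115, 78.4 and 102 CPM in shADAR1 and 123, 79.0 and 103 CPM in shNT, so replicates of an arm differed far more than same-numbered libraries did. HCC1806 had 4.62, 4.18 and 8.95 CPM against 5.63, 5.51 and 10.2 CPM, again with the third of each arm standing above the others. MDAMB468 had between 2.19 and 3.98 CPM, and BT549 between 0.444 and 0.916 CPM, which rests on 25 to 56 reads a library. The mean effect was 0.00 (95% interval -0.35 to 0.34), and the interval in BT549 reached from -0.49 to 1.14.

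LPCAT1 (ENSG00000153395, chromosome 5, 1456480 to 1523977, minus strand), the enzyme that makes the saturated phosphatidylcholine of lung surfactant, had the highest mean level per length of the acyltransferases in all 8 groups. In MDAMB231 it was at 129, 142 and 159 CPM in shADAR1 and 185, 181 and 191 CPM in shNT, without overlap. HCC1806 had 157, 147 and 149 CPM against 179, 153 and 167 CPM, and MDAMB468 had 103, 128 and 126 CPM against 111, 131 and 149.9 CPM. BT549 had the highest level and no such shift, with 266, 272 and 233 CPM against 270.2, 271 and 218 CPM. In all, 10 of 12 same-numbered pairs were lower in shADAR1.

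The MDAMB231 log2 fold change of LPCAT1 was -0.37 (SE 0.114, 77.2% of control) and did not pass (edgeR adjusted p 0.110). The mean effect of -0.15 (95% interval -0.27 to -0.04, edgeR adjusted p 0.191) did not pass either. Both passed when the replicate number within a line was a block, with edgeR adjusted p of 0.000117 in MDAMB231 and 0.000682 in the mean, and with DESeq2 (adjusted p 0.0169 and 0.0495). The MDAMB231 value also passed in edgeR when genes needed at least 10 counts in every library (adjusted p 0.0363). The joint test of LPCAT1 between lines had F 2.07 without a block (edgeR adjusted p 1) and F 8.41 with one (edgeR adjusted p 0.0242).

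LPCAT2 (ENSG00000087253, chromosome 16, 55508998 to 55586670, plus strand), which also makes platelet-activating factor, had no read in any of the 6 BT549 libraries. A count of 0 in 171504589 reads over the shNT group allows up to 0.0175 CPM, and in 218731655 reads over the shADAR1 group up to 0.0137 CPM (3 counts over the group, counting error only). The next lowest line, MDAMB231, was at least 918-fold higher in shNT and at least 1358-fold higher in shADAR1. Its values there were 20.5, 13.9 and 21.5 CPM in shADAR1 and 18.2, 12.7 and 17.3 CPM in shNT. HCC1806 had 59.9, 56.4 and 38.8 CPM against 58.5, 52.0 and 41.2 CPM, and MDAMB468 had 54.4, 45.2 and 51.3 CPM against 50.6, 39.8 and 51.2 CPM. Arms overlapped in all 3 lines, and the log2 fold changes of 0.03, 0.22 and 0.09 in HCC1806, MDAMB231 and MDAMB468 did not pass (edgeR adjusted p 1, 0.775 and 1). No fold change is given in BT549 or for the mean. Exons of ENSG00000261997 overlap 190 bases of LPCAT2, 2.55% of its length, on the same strand.

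LPCAT4 (ENSG00000176454, chromosome 15, 34358618 to 34367278, minus strand), which accepts lysophosphatidylcholine and lysophosphatidylethanolamine, was at 38.6 ± 2.19 CPM in shADAR1 and 42.8 ± 3.78 CPM in shNT in BT549 (SD, n = 3 per arm). In HCC1806 it was at 72.3 ± 6.72 and 72.8 ± 11.3 CPM, in MDAMB231 at 63.4 ± 5.46 and 62.5 ± 4.64 CPM, and in MDAMB468 at 7.71 ± 0.467 and 7.75 ± 0.552 CPM. Every arm overlapped its control, and the mean effect was -0.03 (95% interval -0.15 to 0.08, edgeR adjusted p 0.937).

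LPCAT3 (ENSG00000111684, chromosome 12, 6976186 to 7018510, minus strand), the polyunsaturated-chain acyltransferase that acts downstream of ACSL4, stayed close to control. BT549 had 30.5, 29.1 and 31.9 CPM in shADAR1 and 29.3, 29.1 and 26.7 CPM in shNT. HCC1806 had 33.0, 28.1 and 36.1 CPM against 31.9, 28.4 and 37.1 CPM. MDAMB231 had 18.6, 26.7 and 25.1 CPM against 20.9, 29.4 and 25.6 CPM, and MDAMB468 had 18.3, 20.7 and 22.7 CPM against 22.5, 20.2 and 19.3 CPM. The arms overlapped in all 4 lines and 7 of 12 same-numbered pairs were lower in shADAR1. The mean effect was 0.00 with a 95% interval of -0.15 to 0.14 (edgeR adjusted p 1.00), an interval that does not include the mean effect of ACSL4. Exons of 2 genes on the opposite strand overlap those of LPCAT3, EMG1 over 434 bases (9.19% of its length) and ENSG00000272201 over 1124 bases (23.8%). Whether reads were counted by strand is not given in the sources used here, so reads of these genes and of LPCAT3 could be mixed.

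MBOAT1 (ENSG00000172197) lies on chromosome 6, 20102145 to 20212399, minus strand. In MDAMB231 its level was 12.4, 10.5 and 8.93 CPM in shADAR1 replicates 1, 2 and 3 against 5.997, 6.61 and 6.74 CPM in shNT. MDAMB468 had 28.8, 28.7 and 28.1 CPM against 25.1, 22.9 and 24.2 CPM. All shADAR1 values lay above all shNT values in these 2 lines. BT549, where the gene was lowest, had 2.74, 2.93 and 4.91 CPM against 1.86, 2.17 and 2.79 CPM, and HCC1806 had 37.5, 28.0 and 42.7 CPM against 27.0, 22.8 and 33.1 CPM. The arms overlapped in these 2 lines, although each of the 12 same-numbered pairs of the 4 lines was higher in shADAR1.

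MBOAT1 rose by a mean log2 fold change of 0.49 (SE 0.0984, 95% interval 0.29 to 0.69, edgeR adjusted p 0.00413), or to 141% of control. Line by line the value was largest in MDAMB231 (0.70, edgeR adjusted p 0.0871), then BT549 (0.64, adjusted p 0.317), HCC1806 (0.39, adjusted p 1) and MDAMB468 (0.25, adjusted p 1), and no line passed alone. The BT549 value was 0.33 without its shADAR1 replicate 3, the highest of that arm, which puts it below HCC1806, and without that library the MDAMB231 value passed (edgeR adjusted p 0.0326). The joint test of a difference between the lines did not pass (F 1.18, edgeR adjusted p 1), nor did it with the replicate block (F 3.64, edgeR p 0.0295, adjusted p 0.213). The mean was called in all 24 fits that left out 1 library (0.42 to 0.53). With the replicate block the lines BT549 and MDAMB231 passed (edgeR adjusted p 0.00311 and 0.000259), as did HCC1806 (0.0200), the last not where the block was limited to the 3 lines whose numbers pair (edgeR adjusted p 0.0565). MDAMB231 also passed with DESeq2 (adjusted p 0.0202).

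MBOAT2 (ENSG00000143797, chromosome 2, 8852690 to 9003813, minus strand) had 55.4, 56.3 and 48.0 CPM in shADAR1 against 44.3, 46.3 and 44.4 CPM in shNT in BT549, with no overlap. MDAMB468 had 122, 98.1 and 103 CPM against 100.1, 87.0 and 83.0 CPM, where the arms overlapped but each same-numbered pair was higher in shADAR1. HCC1806 and MDAMB231 were close to control, at 53.9 ± 10.0 against 54.2 ± 11.5 CPM and 37.1 ± 2.88 against 34.6 ± 1.64 CPM (SD, n = 3 per arm). The mean effect of 0.15 (95% interval 0.00 to 0.29) did not pass (edgeR adjusted p 0.370). With the replicate block the mean passed (edgeR adjusted p 0.00141), and so did BT549 (edgeR adjusted p 0.0176) and MDAMB468 (edgeR adjusted p 0.0258). Where the block was limited to the 3 lines whose numbers pair, the mean still passed (edgeR adjusted p 0.0257), and BT549 and MDAMB468 did not (edgeR adjusted p 0.14995 and 0.246).

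**Figure D2:**
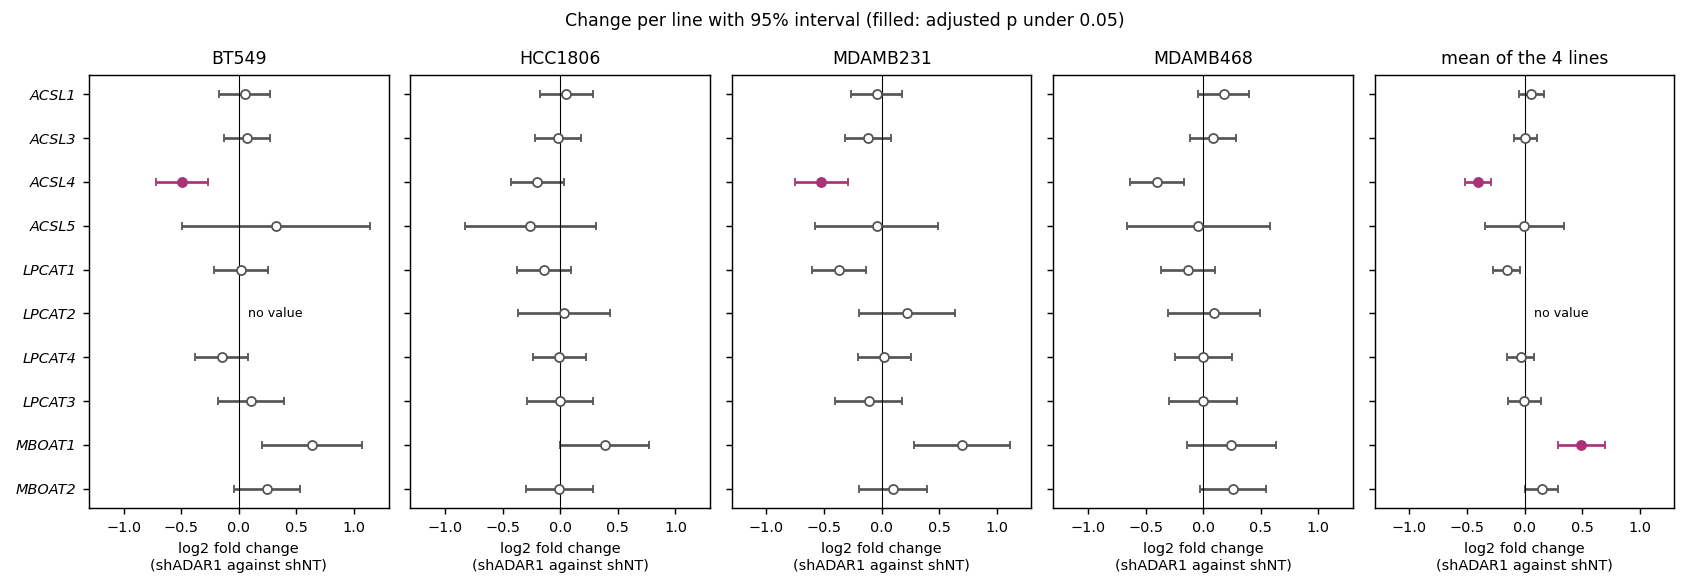
Log2 fold change of shADAR1 against shNT (horizontal axis) for each member (vertical axis) in each line and in the mean of the 4 lines; points are estimates from 24 libraries, bars are 95% intervals, and filled points have an edgeR adjusted p under 0.05. The filled points are ACSL4 in BT549, MDAMB231 and the mean and MBOAT1 in the mean; LPCAT2 has no value where BT549 enters.

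With the replicate block, 3 of 10 members were called in BT549 (5.14% of all genes), 1 of 10 in HCC1806 (2.10%), 3 of 10 in MDAMB231 (11.4%), 2 of 10 in MDAMB468 (1.66%), where the numbers were not read as pairs, and 4 of 10 in the mean (13.2%). The 4 called in the mean were ACSL4 and LPCAT1, which were lower, and MBOAT1 and MBOAT2, which were higher. The blocked joint test called 1 of 10 members, LPCAT1, against 4.69% of genes. Arms did not overlap for 2 members in BT549, where this held for 14.7% of genes, for none in HCC1806 (7.58%), for 4 in MDAMB231 (14.2%) and for 2 in MDAMB468 (11.0%). In MDAMB231 the 4 were ACSL3, ACSL4 and LPCAT1, which were lower, and MBOAT1, which was higher.

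**Figure D3:**
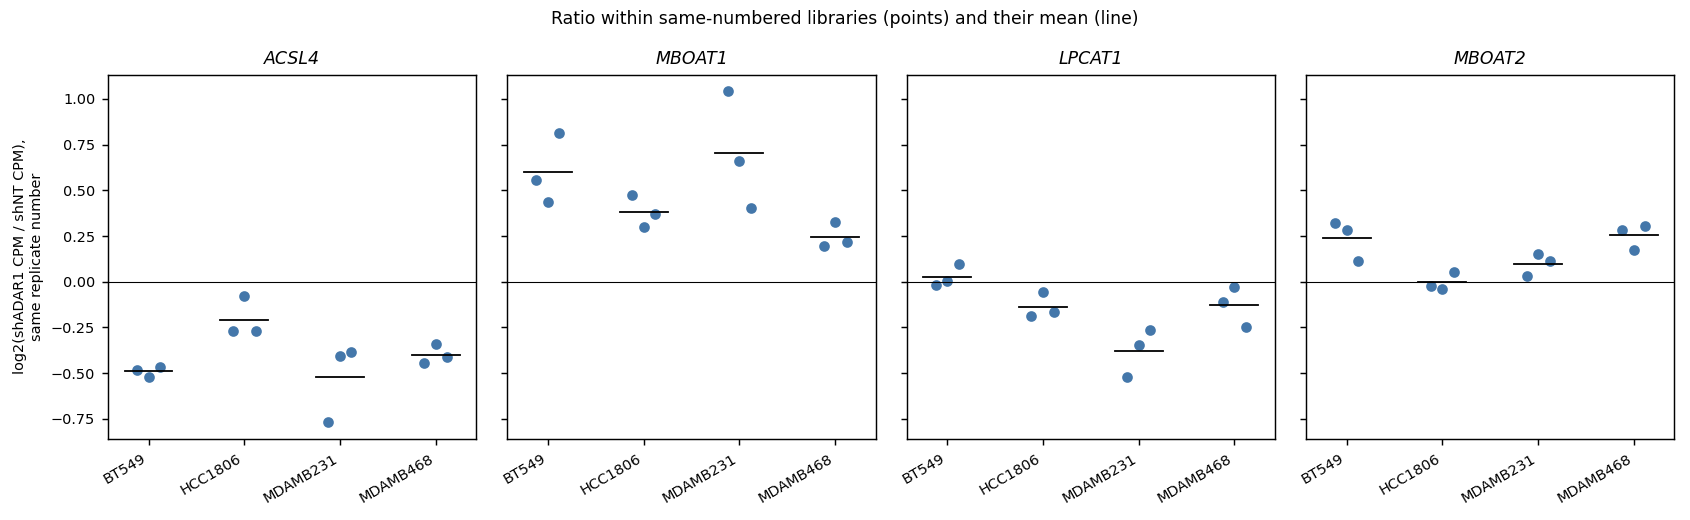
Log2 ratio of shADAR1 to shNT CPM within libraries of the same replicate number (vertical axis) by line (horizontal axis), for the 4 members called in the mean with the replicate block; points are the 3 pairs of a line and lines their mean. All 12 points of ACSL4 lie below 0 and all 12 of MBOAT1 above 0, against 10 of 12 below 0 for LPCAT1 and 10 of 12 above 0 for MBOAT2.

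Levels of different genes were compared per length, as RPKM, which here is the TMM-scaled CPM per kilobase of listed length. The 4 synthetases summed to 49.5 ± 1.27 RPKM in BT549 shADAR1 and 55.0 ± 2.61 RPKM in its shNT (SD, n = 3 per arm), to 36.1 ± 2.33 and 37.6 ± 1.15 RPKM in HCC1806, to 64.8 ± 2.98 and 74.6 ± 6.90 RPKM in MDAMB231 and to 32.7 ± 2.29 and 31.1 ± 1.88 RPKM in MDAMB468. The makeup of this sum differed by line. ACSL3 made up 69.2% of it in HCC1806 shNT, ACSL4 was the largest part in BT549 shNT with 44.2%, ACSL5, ACSL4 and ACSL3 had similar parts in MDAMB231 shNT (31.9%, 31.5% and 29.4%), and ACSL3 and ACSL1 shared most of MDAMB468 shNT (43.2% and 42.4%). In shADAR1 the share of ACSL4 was 34.9% ± 0.517 against 44.2% ± 2.00 in BT549, 25.3% ± 1.81 against 31.5% ± 1.44 in MDAMB231, 8.67% ± 0.699 against 12.003% ± 0.465 in MDAMB468 and 17.7% ± 3.24 against 19.4% ± 1.71 in HCC1806. The ranges of the arms were apart in the first 3 of these lines and overlapped in HCC1806. In BT549, where ACSL4 led the control on average, ACSL3 was the largest part in shADAR1, with 46.5% ± 1.16 against 39.8% ± 3.35. In BT549 shNT replicate 3, however, ACSL3 was above ACSL4 (24.3 against 23.4 RPKM).

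The acyltransferases LPCAT1, LPCAT2 and LPCAT4, which belong to the AGPAT family, summed to 49.1 and 49.5 RPKM in shADAR1 and shNT of BT549, 48.0 and 50.3 RPKM in HCC1806, 40.2 and 46.1 RPKM in MDAMB231 and 27.0 and 28.4 RPKM in MDAMB468. LPCAT1 was the largest part in every group, from 48.5% in HCC1806 shADAR1 to 80.6% in BT549 shADAR1. LPCAT3, MBOAT1 and MBOAT2, which belong to the MBOAT family of membrane-bound acyltransferases, summed to 14.5 ± 0.417 RPKM in shADAR1 and 12.4 ± 0.213 RPKM in shNT of BT549, to 33.1 ± 4.38 and 28.4 ± 2.80 RPKM in HCC1806, to 15.1 ± 0.641 and 12.9 ± 1.21 RPKM in MDAMB231 and to 32.5 ± 1.19 and 28.0 ± 1.84 RPKM in MDAMB468. The arms of this sum did not overlap in BT549, MDAMB231 and MDAMB468. The share of MBOAT1 in it ranged from 10.3% in BT549 shNT to 60.4% in HCC1806 shADAR1, and in MDAMB231 it was 39.2% ± 6.91 in shADAR1 against 28.0% ± 1.21 in shNT. MBOAT1 has the shortest listed length of the members, 1794 bases, and its level per length scales inversely with that figure. These sums and shares were not tested.

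**Figure D4:**
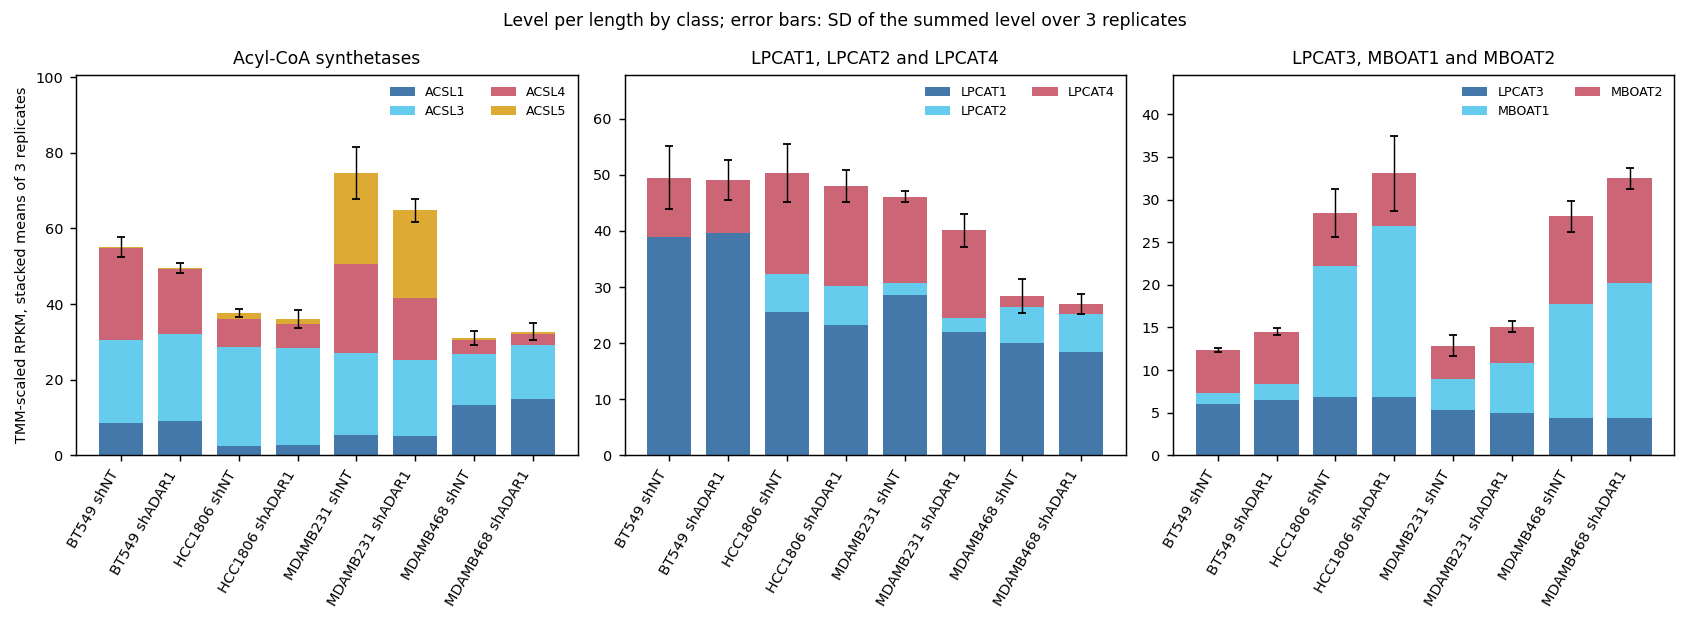
Mean level per length in TMM-scaled RPKM (vertical axis, starting at 0) of the members of 3 classes, stacked, in the 8 groups (horizontal axis); error bars are the SD of the summed level over 3 replicates. The synthetase sum is highest in MDAMB231, where ACSL5 adds 24.0 RPKM in shNT, and the sum of LPCAT3, MBOAT1 and MBOAT2 is higher in HCC1806 and MDAMB468 than in BT549 and MDAMB231.

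The lines differed far more than the arms. All 10 members differed among the 4 shNT groups in edgeR's joint test, as did 85.9% of all genes. Between BT549 and HCC1806, 8 of 10 members differed (63.5% of genes), between BT549 and MDAMB231 7 (56.5%), between BT549 and MDAMB468 10 (61.0%), between HCC1806 and MDAMB231 8 (59.0%), between HCC1806 and MDAMB468 8 (62.9%) and between MDAMB231 and MDAMB468 9 (61.8%). In the orders that follow, unless said otherwise, all levels are of shNT and neighbours differed by edgeR's test with adjusted p under 0.05.

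ACSL4 ran from 156 ± 9.46 CPM in BT549 over 151 ± 18.6 CPM in MDAMB231 and 46.9 ± 5.43 CPM in HCC1806 to 23.9 ± 0.643 CPM in MDAMB468, a span of 6.51-fold, and the first 2 were not told apart (edgeR adjusted p 0.743). LPCAT1 had the same order, from 253 ± 30.7 to 131 ± 19.4 CPM, with MDAMB231 and HCC1806 not told apart (edgeR adjusted p 0.236). The 2 lines with high VIM and ZEB1 thus had the 2 highest shNT means for both genes, but for LPCAT1 this rests on the neighbours not told apart. In shADAR1 the LPCAT1 mean was higher in HCC1806 than in MDAMB231 (151 against 143 CPM). LPCAT2 and MBOAT1 were highest in the other 2 lines, those with high EPCAM and CDH1, and MBOAT2, given below, also had its highest means there. LPCAT2 was at 50.6 ± 8.75 CPM in HCC1806 and 47.2 ± 6.39 CPM in MDAMB468, not told apart (edgeR adjusted p 0.678), at 16.1 ± 2.95 CPM in MDAMB231 and at 0 in BT549. MBOAT1 was at 27.6 ± 5.18 CPM in HCC1806 and 24.1 ± 1.13 CPM in MDAMB468, not told apart (edgeR adjusted p 0.374), then at 6.45 ± 0.396 CPM in MDAMB231 and 2.28 ± 0.473 CPM in BT549, a span of 12.1-fold. The share of all genes with such an order of lines was not counted, and the part of these marker states in the members' levels was not tested.

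ACSL5 had the widest span of the members detected in all lines, 178-fold, from 102 ± 22.0 CPM in MDAMB231 over 7.10 ± 2.65 CPM in HCC1806 and 3.04 ± 0.836 CPM in MDAMB468 to 0.570 ± 0.113 CPM in BT549. LPCAT4 ran over 9.39-fold from HCC1806 over MDAMB231 and BT549 to MDAMB468, with the first 2 not told apart (edgeR adjusted p 0.0974). ACSL1 was highest in MDAMB468, then BT549, MDAMB231 and HCC1806, a span of 5.04-fold. MBOAT2 also peaked in MDAMB468, at 90.0 ± 8.96 CPM, followed by HCC1806, BT549 and MDAMB231, a span of 2.60-fold in which HCC1806 and BT549 were not told apart (edgeR adjusted p 0.101). ACSL3 and LPCAT3 shared the order HCC1806, BT549, MDAMB231 and MDAMB468. ACSL3 spanned 1.93-fold, with BT549 and MDAMB231 not told apart (edgeR adjusted p 0.971). LPCAT3 had the narrowest span, 1.57-fold, and no neighbours in its order were told apart (edgeR adjusted p 0.224, 0.373 and 0.0675).

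Other genes of the pathway were taken from 7 lists with 99 genes, of which 90 were tested. They were other acyl-CoA synthetases, other glycerophospholipid acyltransferases, phospholipases A and lysophospholipases, desaturases and elongases, acyl-CoA thioesterases and binding proteins, plasmalogen synthesis, and lipid peroxidation enzymes. In the mean of the lines 1 of the 90 was called higher and 2 lower, in MDAMB231 1 higher and 2 lower, and in BT549, HCC1806 and MDAMB468 none (edgeR). Of all genes tested, 2.96% were called in the mean, 2.01% in MDAMB231 and at most 0.473% in the other lines. With the replicate block 5 were called higher and 7 lower in the mean, 4 and 10 in MDAMB231, 4 and 1 in BT549, 1 and 2 in HCC1806 and 0 and 1 in MDAMB468. The block called 13.2%, 11.4%, 5.14%, 2.10% and 1.66% of all genes in the same order. These counts are not read as a trait of the pathway. None of the 13 other synthetases tested was called without the block in any line or in the mean, nor were the 14 thioesterases and binding proteins, the 8 genes of plasmalogen synthesis or the 8 peroxidation enzymes. The medians of the 7 lists in the mean lay between -0.05 and 0.06, against 0.02 over all genes.

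Of the acyltransferases listed, AGPAT1, which makes phosphatidic acid from lysophosphatidic acid, fell by 0.23 on the log2 scale in the mean (SE 0.0574, edgeR adjusted p 0.0250). Its means were 30.8 CPM in shADAR1 against 38.2 CPM in shNT in BT549, 22.0 against 26.1 CPM in HCC1806, 59.2 against 71.8 CPM in MDAMB231 and 19.6 against 20.8 CPM in MDAMB468. LCLAT1, an acyltransferase of cardiolipin and phosphatidylinositol precursors, which is named here only because it was called, fell in MDAMB231 (log2 fold change -0.40 with an edgeR adjusted p of 0.0311), with 32.1 ± 0.618 CPM in shADAR1 and 42.3 ± 1.77 CPM in shNT (SD, n = 3 per arm). LYPLA1, an acyl-protein thioesterase and lysophospholipase, fell by 0.28 on the log2 scale in the mean (SE 0.0602, edgeR adjusted p 0.00894), with log2 fold changes between -0.31 and -0.22 in the 4 lines. PLA2G4C, a calcium-independent cytosolic phospholipase A, rose in the mean (log2 fold change 0.58, SE 0.151, edgeR adjusted p 0.0348). It was at 2.27 ± 0.0723 CPM in shADAR1 and 0.899 ± 0.132 CPM in shNT of MDAMB231, a log2 fold change of 1.34 (edgeR adjusted p 0.0454), while MDAMB468 had a log2 fold change of -0.13. The MDAMB231 value rests on few reads, since the shNT level is low and replicate 1 of that arm has only 10370645 reads in all. HSD17B12, a reductase of fatty acid elongation, fell by 0.76 on the log2 scale in MDAMB231 (edgeR adjusted p 0.0283), where shADAR1 had 39.6 ± 12.4 CPM and shNT 67.3 ± 8.40 CPM.

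The genes whose log2 CPM over the 24 libraries was most like a member's were found by Pearson correlation among genes whose log2 CPM averaged 2 or more. These values follow the 4 lines, which all libraries of a line share, and are given as a description. ACSL4 was most like SGCB (r = 0.985) and PLIN3 (0.982), ACSL3 like NXPE3 (0.968) and PPFIBP1 (0.961), ACSL1 like SAP30L (0.988) and PGM2L1 (0.986), and ACSL5 like NFE2L3 (0.981) and PAQR5 (0.979). LPCAT1 was most like DUS2 (0.960) and G3BP1 (0.949), LPCAT2 like KYNU (0.997), LPCAT4 like BCAT1 (0.994) and RAD21 (0.992), and LPCAT3 like SRC (0.945) and ZNF584-DT (0.931). MBOAT1 was most like STAG1 (0.975) and AFTPH (0.974), and MBOAT2 like SUSD6 (0.967) and DGCR6L (0.959). LPCAT3, with the narrowest span over the lines, had the weakest matches.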

How the data were processed

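RNA was taken from 24 cultures in 8 groups, and libraries were made from total RNA after ribosomal RNA removal, per the labels' protocols. bcl2fastq, STAR, Subread featureCounts and edgeR are named in the submitters' processing notes, while the genome build, annotation and strand use are not given in the sources used here. The deposited files hold a whole-number read count per gene, per the file headers. They also hold deposited CPM, which equalled the count scaled to 1000000 reads of the library's total (largest difference 4.73e-11), and deposited RPKM, which equalled that CPM per kilobase of listed length (largest difference 1.31e-10). Symbols came from a name table, which gave 28810 of the 37416 genes a symbol. All 10 members have the same start and end in the files as in GENCODE 29 on GRCh38, as have 31357 of the 34265 genes found in that release, and coordinates are as the files list them.

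Counts were tested with edgeR 4.0.16 in R 4.3.3 (filterByExpr, TMM factors 0.924 to 1.12, 1 coefficient per group, quasi-likelihood F test, 2-sided), which left 21352 genes. The common biological coefficient of variation was 0.176. Standard errors were derived from the fold change and F, and 95% intervals from the t distribution with edgeR's total degrees of freedom. The fit recovered known changes in simulated counts when tested on simulated data. Those changes were larger than any shADAR1 effect of a member and were planted in BT549 only. Recovery of effects as small as those of the members was not tested. No 2 libraries of a group agreed within counting noise, since the lowest chi-square per degree of freedom was 10.9. Lengthwise levels are TMM-scaled CPM per kilobase of listed length. At most 2.78% of the 50-base windows of a member's transcripts occur in another gene's transcripts, and none is shared between members.

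Both arms of each line use the replicate numbers 1 to 3. To see whether a number pairs libraries, the deviations of same-numbered libraries from their group means were correlated over genes. The 3 values were between 0.139 and 0.250 in BT549, between 0.242 and 0.443 in HCC1806 and between 0.149 and 0.348 in MDAMB231. All exceed 0.1, so the numbers were read as pairs in these lines, but not in MDAMB468, where the lowest value was 0.0651.

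Results were recomputed with DESeq2 1.42.0, with RLE or upper-quartile factors, without the low-count filter, with a minimum of 10 counts in each library, with the replicate number as a block, on 1 line's 6 libraries, after dropping mitochondrial and structural RNA genes, and with each library left out. A block in the 3 paired lines only was chosen after seeing the data. The members, the lists and the tests were chosen with earlier results of these data known. All members and ADAR are named, with up to 2 genes per list called in the mean by smallest p, or 1 called in any line where none was, and the 2 genes most like each member, of which 1 is not reported here.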

Additional observations from a re-analysis of the deposited data

Results flagged for a closer look

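LPCAT1 was the only member whose shADAR1 effect differed between lines by any test of that difference, with an edgeR adjusted p of 0.0242193 (F 8.41) when the replicate number within every line was a block. With this block MDAMB231 had the lowest log2 fold change (-0.37), HCC1806 (-0.14) and MDAMB468 (-0.13) lay between, and BT549 was at 0.03. The same test had an edgeR adjusted p of 0.343 when the block was limited to the 3 lines whose numbers pair, and of 1 without a block.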

How the results depend on the processing

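No called fold change of a member turned its direction under any alternative run. Of the 48 fold changes followed, uncalled ones changed sign in 8 cases under other settings and in 21 when a library was left out. With the replicate block, members called went from 1 to 3 in BT549, 0 to 1 in HCC1806, 1 to 3 in MDAMB231, 0 to 2 in MDAMB468 (ACSL4 and MBOAT2), 2 to 4 in the mean and 0 to 1 in the joint test, and all genes called went from 101 to 1098, 10 to 448, 429 to 2434, 8 to 354, 632 to 2820 and 5 to 1002. In MDAMB468, where the numbers were not read as pairs, every library still correlated best with its own number. With the replicate block in the 3 paired lines only, members called were 2 in BT549, 3 in MDAMB231, 1 in MDAMB468 (ACSL4, edgeR adjusted p 0.0126) and 4 in the mean, and genes called were 608, 173, 1775, 90, 2039 and 309 in the same order. In fits to the 6 libraries of a line, genes called were 226 in BT549, 0 in HCC1806 (edgeR, 426 at an unadjusted p under 0.05, 42 by DESeq2 on all libraries), 117 in MDAMB231 and 21 in MDAMB468, and no member was called in MDAMB231. Those 426 genes are fewer than 0.05 of the 17657 tested in that fit. DESeq2 called 299, 42, 812, 42, 1054 and 125 genes, and 3 members in MDAMB231. With no filter on low counts, genes called were 18 in HCC1806 and 22 in the joint test, and no member was called in BT549. With at least 10 counts in every library, 2 members were called in MDAMB231, and genes called were 185 in BT549, 16 in MDAMB468, 25 in the joint test and 11287 between lines in shNT, from 18341. Leaving out 1 library gave 61 to 122 genes called in BT549, 4 to 15 in HCC1806, 202 to 526 in MDAMB231, 3 to 13 in MDAMB468, 500 to 706 in the mean, 2 to 14 in the joint test and 18261 to 18680 between lines, with 0 to 1 members in BT549, 0 to 2 in MDAMB231, 2 to 2 in the mean, 10 to 10 between lines and 0 to 0 elsewhere. In the fits that leave an arm with 2 libraries the spread is shared with the other groups. Of 80 levels per length, 14 moved by more than 1 SD with the deposited RPKM. The causes were not tested. Depth limits the members with few reads, such as ACSL5 in BT549, with 25 to 56 reads a library.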
